A study of Mus musculus with 4 samples.

Results

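The USP genes encode ubiquitin-specific proteases, the largest family of deubiquitinases. They were taken as the gene symbols that begin with Usp followed directly by a digit or by l1, which gave 57 of the 23420 gene symbols measured. The annotation placed 51 of them on autosomes and 6 on the sex chromosomes, 5 on the X (Usp9x, Usp11, Usp26, Usp27x and Usp51) and 1 on the Y (Usp9y). The symbol rule also took in Usp6nl, which encodes a GTPase-activating protein of the TBC family and not a protease.

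RNA-seq was performed on pachytene spermatocytes, male germ cells in the long middle stage of meiotic prophase, isolated by FACS from the testes of wild-type C57BL/6 mice of 23 weeks of age. The cells were cultured for 24 h with the solvent DMSO (Ctrl, 2 libraries) or with 10 µM AZ20, an inhibitor of the kinase ATR (AZ20, 2 libraries). The methods state that the cells of each mouse were split between the conditions. Libraries of the same replicate number may therefore be pairs, which the labels do not state. The main fit did not use this pairing. It entered only as a replicate block in alternative fits and where differences are given for each pair. The comparison asks whether continued ATR signaling is needed to keep the sex chromosomes silent at this stage. All 4 libraries thus came from cells without a genetic change that had been kept in culture.

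Deubiquitinases cleave ubiquitin from proteins and thereby reverse the work of the ubiquitin ligases. USP proteases share a catalytic domain that uses a cysteine residue, and differ in the flanking regions that choose their substrates, among them histones H2A and H2B, proteins of the DNA damage response and receptors on endosomes. In pachytene spermatocytes the X and Y chromosomes, which lack a homologous partner along most of their length, are transcriptionally silenced by meiotic sex chromosome inactivation (MSCI). ATR drives the phosphorylation of histone H2AX on their chromatin, and ubiquitin is conjugated to histone H2A there. Genes on the X and Y are therefore silent at this stage while autosomal relatives of the same gene can stay active.

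The values deposited were TPM, levels scaled to the depth of the library and the length of the gene, which can be compared between genes. The reads behind them were recovered as whole numbers for all 16857 genes above 0 and summed to between 13988849 and 15873639 per library in Ctrl and between 18567407 and 20281638 in AZ20. Pachytene markers were present throughout, with 10 of 10 above 1 TPM in every library and a summed TPM of 11670 to 11690 in Ctrl and 11910 to 11940 in AZ20. Sertoli markers summed to 1.39 to 2.0 TPM in Ctrl and 2.20 to 3.38 in AZ20, with Sox9, Wt1, Gata1 and Rhox5 at 0 in every library. Dhh, of that list, was at 1.34 and 1.685 TPM in Ctrl and 1.63 and 1.35 in AZ20. Cldn11 was at 0.0529 and 0.0463 TPM in Ctrl and 0.110 and 0.651 in AZ20, and Defb19 at 0 and 0.220 against 0.698 and 0.193. Clu and Aard were at 0.418 and 0.459 TPM in AZ20 replicate 1 and at 0 elsewhere. Amh and Gata4 reached at most 0.0521 TPM. Leydig markers summed to 0.866 to 2.32 and 1.60 to 2.11, all from Star, with 5 of 6 at 0. Macrophage markers summed to 0.659 to 1.34 and 1.18 to 1.91, with C1qa at 0. Cd68 was at 1.28 and 0.086 TPM in Ctrl and 0.478 and 0.529 in AZ20, and Lyz2 at 0 and 0.246 against 0.846 and 0.649. C1qb was at 0 and 0.3265 TPM against 0.1295 and 0, and Cd74 at 0.437 TPM in AZ20 replicate 1 only. Csf1r and Adgre1 reached at most 0.0611 TPM. Peritubular markers summed to 2.18 to 2.89 and 2.59 to 4.6, with Des at 0. Tagln was at 2.0 and 1.585 TPM in Ctrl and 1.91 and 2.835 in AZ20, and Myh11 at 0 and 0.0392 against 0.270 and 0.276. Markers of these cell types were thus low but not absent. Spermatogonial markers summed to 8.26 to 21.2 and 13.5 to 15.1, most of it from Uchl1, with Stra8 and Dmrt1 at 0. Gfra1, the other member tested, was at 0.154 and 0.3765 TPM in Ctrl and 1.11 and 0.9455 in AZ20, and was not called. It could be tested only through its AZ20 mean, so its direction was fixed by the filter given below. Uchl1 overlapped between the groups. Markers of round spermatids, the haploid cells that follow meiosis, were higher, at 371 and 154 TPM in Ctrl and 786 and 259 in AZ20. Their 10 members, all autosomal, had a median change of 0.77 on the log2 scale. Of these, 10 of 10 were positive, beside 5798 of 9931 autosomal genes tested. Tssk6 and Catsper4 had a mean of 0.898 and 0.280 TPM in Ctrl and 1.505 and 1.41 in AZ20. They could be tested only through AZ20, so their positive sign was fixed by the filter. Among the 10 markers, the number called was 0, where 0.101% of autosomal genes were called higher, and 1 with the replicate block, where 1.35% were. Their values are given again beside the results they touch.

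Limma was fitted to log2(TPM + 1) of the 10316 genes whose mean exceeded 1 TPM in either condition, and a gene was called when it changed at least 2-fold on this scale with a Benjamini-Hochberg adjusted p under 0.05. The scale understates the change of low genes. Of the 57 USP genes, 43 were tested, and 4 of them were called higher in AZ20, against 2.28% of all genes tested. No USP gene was called lower by limma, against 0.0485% of all genes; before adjustment, 6 were higher at a p under 0.05 (8.03% of all genes) and 1 was lower (1.13%), and voom on the recovered reads also called 4 higher and 0 lower. With the replicate number added as a block, limma called 5 higher, against 4.11% of all genes, and 0 lower, against 0.223%. Without AZ20 replicate 1, and likewise without AZ20 replicate 2, limma called no gene of the whole table, and without Ctrl replicate 1, as without Ctrl replicate 2, 3 USP genes were called, since Usp9x was lost. The 4 called genes were Usp9x, Usp9y, Usp11 and Usp51, every sex-linked member that could be tested. Of the 39 autosomal members tested, 0 were called, against 0.101% of autosomal genes called higher and 0.0503% called lower. Among the tested members, 7 passed the filter on low values only through AZ20, the 4 called genes and the autosomal Usp22, Usp31 and Usp36, so a sex-linked gene that stayed silent could not enter the count.

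The regions just upstream of the sex-linked genes are shown because these genes were alike in Ctrl, with at most 1 read each, and ranged from 0 to 1925 reads over both AZ20 libraries. The 250 bases before the transcription start are given 5′ to 3′ on the strand of the gene, from RefSeq on GRCm38.p6, with each CpG dinucleotide in capitals. The promoter table held 44 windows for 43 USP genes, 5 of them sex-linked. It held none for Usp9x, so the comparison of windows leaves out that gene.
Usp11, chrX:20703659-20703908 (+): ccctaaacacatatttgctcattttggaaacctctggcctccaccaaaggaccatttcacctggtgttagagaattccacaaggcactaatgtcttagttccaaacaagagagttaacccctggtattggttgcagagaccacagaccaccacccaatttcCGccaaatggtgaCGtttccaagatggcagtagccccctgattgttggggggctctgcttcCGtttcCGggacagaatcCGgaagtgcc
Usp51, chrX:153006219-153006468 (+): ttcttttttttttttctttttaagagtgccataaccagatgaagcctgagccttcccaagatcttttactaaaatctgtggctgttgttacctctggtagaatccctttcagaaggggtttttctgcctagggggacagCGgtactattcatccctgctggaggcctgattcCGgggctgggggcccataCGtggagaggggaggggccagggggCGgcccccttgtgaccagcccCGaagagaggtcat
Usp9y, chrY:1459783-1460032 (-): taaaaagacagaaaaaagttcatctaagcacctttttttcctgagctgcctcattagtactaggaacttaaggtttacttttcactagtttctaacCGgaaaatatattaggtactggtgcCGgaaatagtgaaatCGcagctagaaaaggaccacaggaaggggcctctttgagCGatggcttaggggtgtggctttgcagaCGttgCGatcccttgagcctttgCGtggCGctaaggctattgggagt
Usp26, chrX:51801234-51801483 (-): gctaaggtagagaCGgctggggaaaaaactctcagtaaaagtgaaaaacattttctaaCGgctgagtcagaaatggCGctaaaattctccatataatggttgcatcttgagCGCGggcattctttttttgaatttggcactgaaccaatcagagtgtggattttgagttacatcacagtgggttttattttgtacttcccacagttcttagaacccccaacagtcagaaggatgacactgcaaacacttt
Usp27x, chrX:7375831-7376080 (-): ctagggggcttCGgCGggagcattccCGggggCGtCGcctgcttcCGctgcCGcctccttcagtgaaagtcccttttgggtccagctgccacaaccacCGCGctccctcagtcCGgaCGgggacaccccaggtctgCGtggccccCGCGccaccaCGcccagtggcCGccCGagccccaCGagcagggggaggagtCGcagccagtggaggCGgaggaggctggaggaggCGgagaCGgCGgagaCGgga

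The windows of Usp11, Usp51 and Usp26 each held 5 CpG, that of Usp9y held 8 and that of Usp27x held 24. The median was 6 over all 32851 windows of the same length and 23 over the 39 windows of 38 autosomal USP genes, where the number ran from 0 to 55. Fewer CpG than in Usp27x were found in 88.0% of all windows, fewer than in Usp9y in 57.0%, and fewer than in the other 3 genes in 44.4%. G and C made up 72.4% of the Usp27x window, 52.8% of Usp51, 50.0% of Usp11, 44.8% of Usp9y and 41.2% of Usp26, beside a median of 52.4% over all windows. Searched on both strands, the letters TATAAA were in none of the 5 windows and in 12.4% of all windows. The letters GGGCGG were found in Usp51 and Usp27x and in 32.7% of all windows, and CCAAT in Usp11, Usp26 and Usp9y and in 33.8% of all. Among the 39 autosomal windows, 25 held GGGCGG, 10 held CCAAT and 5 held TATAAA. These matches describe the letters of the windows only. The window with the most CpG, that of Usp27x, belonged to the gene with no reads in any library, and windows of 5 CpG belonged to Usp11 and Usp51, which were called, as well as to Usp26, which was not tested.

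Usp9x encodes a large deubiquitinase of cell polarity and protein stability (chrX:13071498-13173328, plus strand, GRCm38). It was at 0 and 0.00728 TPM in the Ctrl libraries and at 3.98 and 4.16 TPM in AZ20. The groups were far apart and the AZ20 libraries lay close together, with a mean of 4.07 ± 0.132 TPM (SD, n = 2). On the log2(TPM + 1) scale Usp9x rose by 2.34 (SE 0.30, adjusted p = 0.00769, limma). The values came from 1 read over both Ctrl libraries and 1338 over both AZ20 libraries, a depth-scaled ratio of 1046 with a 95% counting interval of 187 to 41350. Like every such interval here, it covers counting error only.

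Usp9y, its homologue on the Y chromosome (chrY:1298961-1459782, minus strand), is of interest because the Y is silenced together with the X. It was at 0 TPM in both Ctrl libraries and at 9.50 and 7.6 TPM in AZ20, with no overlap, and rose by 3.25 (SE 0.29, adjusted p = 0.00107, limma). The reads were 0 in Ctrl and 1925 in AZ20. Against a floor of 3 reads in each Ctrl library, the mean TPM was at least 248-fold higher. In both AZ20 libraries the Y copy stood above the X copy in TPM, 9.50 against 3.98 and 7.6 against 4.16.

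Usp11 encodes a deubiquitinase with roles in repair of broken DNA (chrX:20703906-20720539, plus strand). It was at 0 TPM in both Ctrl libraries and at 15.6 and 11.4 TPM in AZ20. No read was recovered in either Ctrl library and 785 and 516 reads were recovered in AZ20, so the groups did not overlap. Usp11 rose by 3.84 on the log2 scale (SE 0.29, adjusted p = 0.000457, limma), and its mean TPM was at least 167-fold higher against the floor of 3 reads per Ctrl library.

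Usp51 (chrX:153006469-153009416, plus strand) encodes a histone deubiquitinase that is close in sequence to Usp22 and Usp27x. It was at 0 TPM in both Ctrl libraries and at 17.1 and 10.6 TPM in AZ20, from 0 and 870 reads. The spread between the AZ20 libraries was the widest of the sex-linked members, with a mean of 13.8 ± 4.6 TPM (SD, n = 2), yet both stood above both Ctrl libraries. Usp51 rose by 3.86 (SE 0.32, adjusted p = 0.000715, limma), at least 112-fold in mean TPM against the floor.

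Usp26 (chrX:51753959-51801233, minus strand) encodes a protease found mainly in the testis. It had a mean TPM above 1 in neither condition and was not tested. It was at 0 and 0.0210 TPM in Ctrl and at 0.749 and 1.2 TPM in AZ20, from 0 and 1 reads and from 45 and 65 reads. The 4 values did not overlap between the groups, and the depth-scaled ratio of AZ20 to Ctrl was 86.0 with a 95% counting interval of 15.1 to 3427. With an AZ20 mean of 0.974 ± 0.318 TPM (SD, n = 2), it lay just under the level at which genes were tested.

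Usp27x (chrX:7371276-7375830, minus strand), whose product works on histone H2B, had no read in any of the 4 libraries. A count of 0 allows up to 3 reads, which for this gene is 0.0918 and 0.0803 TPM in the Ctrl libraries and 0.0637 and 0.0706 TPM in the AZ20 libraries. A change below that level was not detectable at this depth. Both AZ20 limits lay below the lowest AZ20 level of Usp26, 0.749 TPM.

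**Figure D1:**
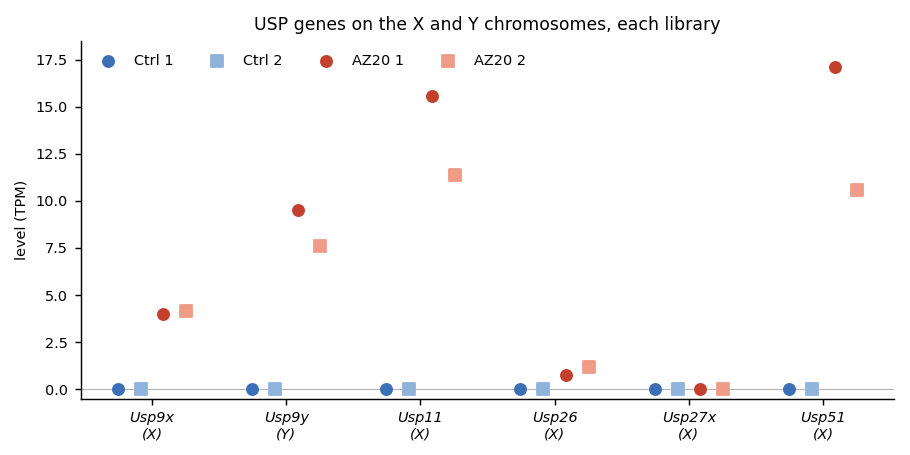
Level in TPM (y axis, linear) of the 6 USP genes on the X and Y chromosomes (x axis) in each of the 4 libraries, with 1 point for each library. The Ctrl points of all 6 genes lie at or next to 0, and the AZ20 points run from 0 for Usp27x to 17.1 for Usp51.

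In AZ20 the sex-linked members thus ranked by mean TPM as Usp51 (13.8), Usp11 (13.5), Usp9y (8.55), Usp9x (4.07), Usp26 (0.974) and Usp27x (0). Usp51 and Usp11 changed places between the AZ20 libraries and did not differ beyond their spread. Each of the other neighbours in this order was apart in both libraries. Usp51, Usp11 and Usp9y were higher in AZ20 replicate 1 than in replicate 2, whereas Usp9x and Usp26 were slightly higher in replicate 2.

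These changes lay within the range of their chromosomes. Of the 341 X-linked genes tested, 63.3% were called higher, and of the 8 Y-linked genes 75.0%, so 3 of 3 X-linked and 1 of 1 Y-linked USP genes stand beside a background in which most genes were called. By log2 change Usp51 ranked 95, Usp11 97 and Usp9x 193 among the 341 X-linked genes, and by mean AZ20 TPM they ranked 111, 113 and 213. None stood at either end of the distribution. Both AZ20 values were above both Ctrl values in 91.2% of the X-linked genes tested. The filter on low values acted on all these genes, and the 4 USP genes passed it only through AZ20. A sex-linked gene that stayed silent could therefore enter neither the USP counts nor these shares.

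**Figure D2:**
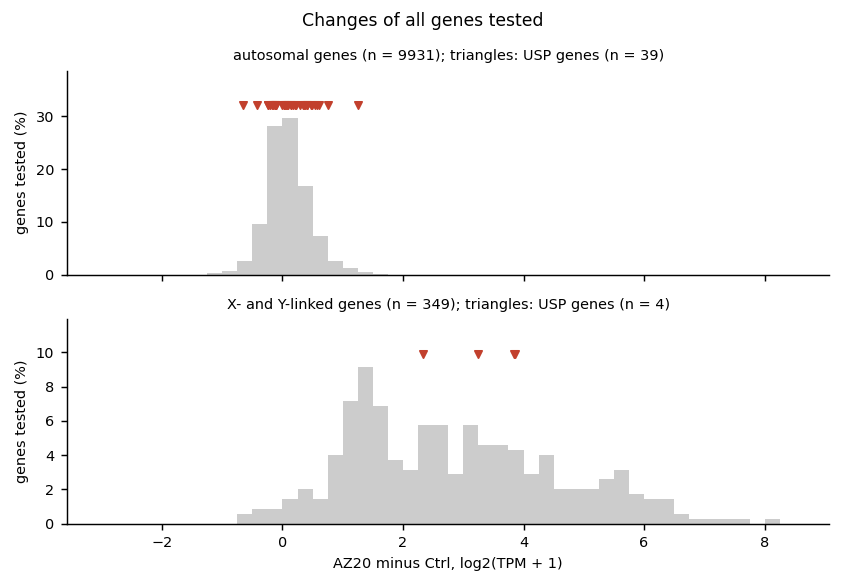
Percent of genes tested (y axis) in bins of the AZ20 minus Ctrl difference in log2(TPM + 1) (x axis), for 9931 autosomal genes (top) and 341 X-linked with 8 Y-linked genes (bottom), with triangles for the USP genes. The 39 autosomal USP genes lie over the central peak, from -0.65 to 1.25, and the 4 sex-linked ones inside the broad distribution of their chromosomes, from 2.34 to 3.86.

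The summed TPM of the round spermatid markers was 371 and 154 in Ctrl and 786 and 259 in AZ20, highest in AZ20 replicate 1, as were Usp11, Usp51 and Usp9y. In Ctrl replicate 1, at 371, those 3 genes had no read, and in AZ20 replicate 2, at 259, they had 516, 312 and 807 reads. The part of these cells in the result was not tested. In bulk samples such as these, fewer cells of a type and less RNA per cell cannot be told apart. The exons of the 6 genes overlapped no exon of another gene in GENCODE. For 5 of the 6, no 150-base window of a transcript, the length of a read, occurred in a transcript of another gene, and for Usp9x 3.75% of windows did, in AC134468.1 and Gm17538. No such window was shared between Usp9x and Usp9y.

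Each sex-linked member has autosomal relatives, so the levels of related genes were set side by side. Among Usp9x, Usp9y and the related Usp24 on chromosome 4, Usp24 was expressed in every library, at 9.32 and 6.67 TPM in Ctrl and 7.88 and 9.88 TPM in AZ20. These values overlapped between the groups, and Usp24 was not called (0.14, SE 0.27, adjusted p = 0.934, limma). The sex-linked pair made up 0% and 0.109% of the summed TPM of the 3 genes in Ctrl, and 63.1% and 54.4% in AZ20. The sum itself went from 9.32 and 6.68 TPM to 21.4 and 21.6 TPM.

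Usp22, the H2B deubiquitinase of the SAGA transcription complex, and its X-linked relatives Usp51 and Usp27x showed the largest shift of the 4 groups. Usp22 was low, at 0.535 and 0.742 TPM in Ctrl and 1.16 and 2.5 TPM in AZ20. Both AZ20 values were above both Ctrl values, but the change was not called (0.75, SE 0.37, adjusted p = 0.644, limma). Usp51 supplied 0% of the summed TPM in either Ctrl library and 93.6% and 80.9% in AZ20, where the group rose from 0.535 and 0.742 TPM to 18.2 and 13.1 TPM in all. In AZ20 replicate 1 the level of Usp51 was 1471% of that of Usp22, and in replicate 2 it was 423%.

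Usp11 shares its domain structure with Usp4 and Usp15. Usp15 was among the most abundant members, at 74.5 and 73.0 TPM in Ctrl and 66.1 and 69.0 TPM in AZ20. Both AZ20 values were the lower ones, though not called (-0.12, SE 0.17, adjusted p = 0.902, limma). Usp4 was at 23.5, 17.9, 21.8 and 19.8 TPM in the same order and overlapped between groups (0.02, SE 0.23, adjusted p = 0.994, limma). Usp11 made up 0% of the sum in Ctrl and 15.1% and 11.3% in AZ20, reaching 71.5% and 57.4% of the level of Usp4 and 23.6% and 16.4% of that of Usp15.

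Usp26 belongs with Usp37, which acts on cyclin A in the cell cycle, and Usp29. Usp37 was at 53.3 and 51.2 TPM in Ctrl and 45.8 and 59.6 TPM in AZ20, and its difference was 0.00 (SE 0.21, adjusted p = 1.0, limma). Usp29 was near 0, between 0 and 0.0677 TPM. Usp26 therefore made up little of this group, 0% and 0.0410% in Ctrl and 1.61% and 1.97% in AZ20. With 2 libraries against 2, an exact permutation test cannot go below a two-sided p of 0.33, so the shares are given as values.

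**Figure D3:**
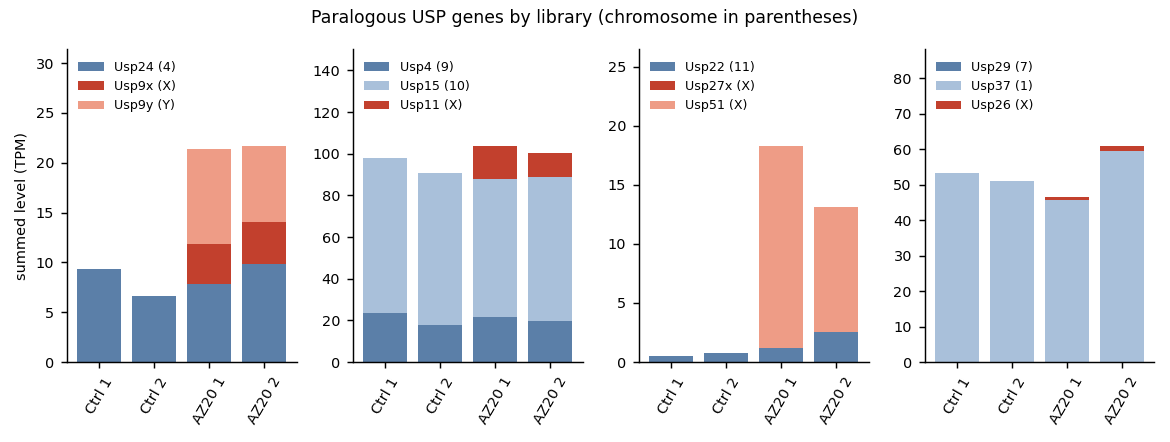
Summed level in TPM (y axis, linear from 0, one scale for each panel) of 4 groups of related USP genes in the 4 libraries (x axis), stacked by gene, with autosomal genes in blue and sex-linked genes in red. The red segments are absent or too small to see in Ctrl and make up 93.6% and 80.9% of the Usp22 group in AZ20 but 1.61% and 1.97% of the Usp26 group.

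Over the family, the summed TPM of the 57 genes was 917 and 888 in Ctrl and 937 and 1007 in AZ20. The sex-linked members supplied 0% and 0.00318% of it in Ctrl and 5.00% and 3.46% in AZ20. The number of members above 1 TPM was 36 and 38 in Ctrl and 43 and 44 in AZ20, and the number at 0 was 14 and 12 against 9 and 8. The AZ20 libraries were also deeper and detected more genes of the whole table, 15234 and 14325 above 0 against 13701 and 13848 in Ctrl, and the part of depth in these counts was not tested. The 6 most abundant members of each library held 52.3% and 53.2% of the sum in Ctrl and 46.7% and 49.7% in AZ20. These were not the same genes in every library, with Usp47 among them in Ctrl replicate 1 and Usp47 and Usp37 in AZ20 replicate 2.

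Usp1, which removes ubiquitin from FANCD2 and PCNA, was the most abundant member in every library, at 162 and 154 TPM in Ctrl and 148 and 175 TPM in AZ20. The groups overlapped, and the difference was 0.03 (SE 0.17, adjusted p = 0.985, limma). Usp15, Usp2, Usp39, Usp8 and Usp16 followed by mean Ctrl TPM. Usp2, a protease of cyclin D1, was at 62.2 and 70.3 TPM in Ctrl and 59.8 and 61.1 TPM in AZ20, and Usp39, a splicing factor without protease activity, at 54.7 and 68.1 TPM and at 56.0 and 57.5 TPM. None of the 6 was called, with differences between -0.13 and 0.17, where 0.101% of autosomal genes were called higher and 0.0503% lower.

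**Figure D4:**
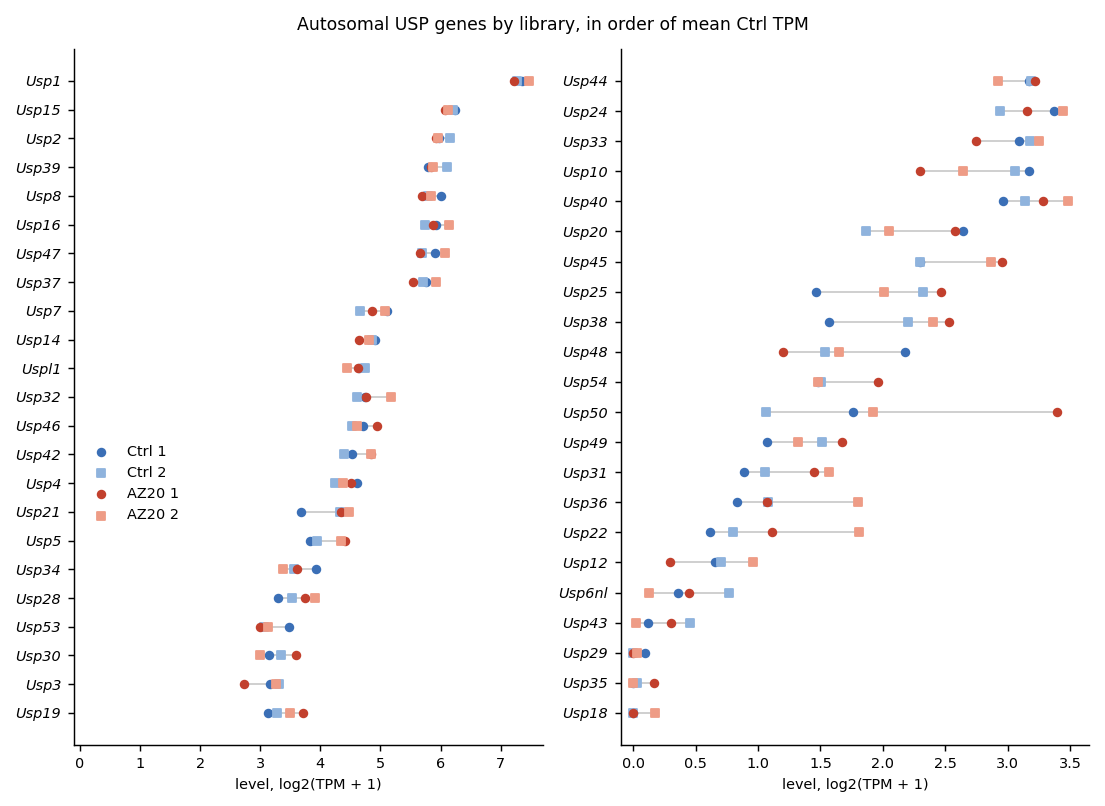
Level as log2(TPM + 1) (x axis) of the 45 autosomal USP genes with a value above 0, in order of mean Ctrl TPM from top left to bottom right, with 1 point for each of the 4 libraries and a grey line over their range. The points of the 2 conditions intermingle for most genes, and Usp50 has the widest range, from 1.09 to 9.52 TPM.

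The 39 autosomal members tested had a median difference of 0.09, next to 0.06 over all 9931 autosomal genes tested. Their middle part, from the lower to the upper quartile, ran from -0.13 to 0.39, and that of all autosomal genes from -0.12 to 0.29. The differences were positive for 26 and negative for 13, beside 5798 positive and 4133 negative over all 9931 autosomal genes. They had the same sign in both replicate pairs for 14 higher and 7 lower genes, which was not counted over all genes. The median was 0.01 in the first pair and 0.15 in the second. Both AZ20 values were above both Ctrl values for 12 of the 39 (30.8%, beside 24.1% of autosomal genes) and below them for 5 (12.8%, beside 12.2%). These shares lay near those of autosomal genes at large. Usp22, Usp31 and Usp36 passed the filter on low values only through AZ20, so their place among the 26 positive differences was fixed by it. Usp22 and Usp31 were also among the 12. The same filter acted on all autosomal genes.

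Before adjustment, 2 autosomal members were higher and 1 was lower at a p under 0.05, where 5.17% of autosomal genes were higher and 1.18% lower. Usp50, a family member that lacks protease activity, had the largest difference. It was at 2.38 and 1.09 TPM in Ctrl and 9.52 and 2.79 TPM in AZ20, from 21, 11, 121 and 32 reads. AZ20 replicate 1 stood far above the other 3 libraries, and AZ20 replicate 2 only just above Ctrl replicate 1. The difference was 1.25 (SE 0.51, adjusted p = 0.535, limma) and was called only with the replicate block on log2(TPM + 1), at an adjusted p of 0.00944 in limma, where 1.35% of autosomal genes were called higher. With the same block in voom on the recovered reads it was not called (adjusted p = 0.256, limma). The summed round spermatid markers were also highest in AZ20 replicate 1 (786 TPM) and lowest in Ctrl replicate 2 (154 TPM), and their part in this result was not tested. Of the exonic bases of Usp50, 6.57% overlap exons of Gm10774, and 6.04% of its 150-base windows also occur in Gm10774 or Polr2l, so its reads are less certain than those of the sex-linked genes.

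Usp45, which acts on the repair nuclease partner ERCC1, was at 3.93 and 3.91 TPM in Ctrl and 6.76 and 6.30 TPM in AZ20. Replicates lay close and the groups were apart, but the difference of 0.61 (SE 0.25, adjusted p = 0.517, limma) missed the call. Usp10, a partner of the stress granule proteins G3BP1 and G3BP2, was the member with the largest negative difference. It was at 7.99 and 7.34 TPM in Ctrl and 3.91 and 5.23 TPM in AZ20, without overlap, for a difference of -0.65 (SE 0.26, adjusted p = 0.512, limma). Usp38 (1.97 and 3.59 against 4.79 and 4.28 TPM, 0.58) and Usp48 (3.52 and 1.90 against 1.29 and 2.14 TPM, -0.43) were next among those with large differences in each direction, and neither passed. Usp34, at 14.2 and 10.8 TPM in Ctrl and 11.2 and 9.43 TPM in AZ20, had a difference of -0.24. Exons of other genes overlap 20.5% of the exonic bases of Usp38 and 11.6% of those of Usp34, so their reads are also less certain.

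**Figure D5:**
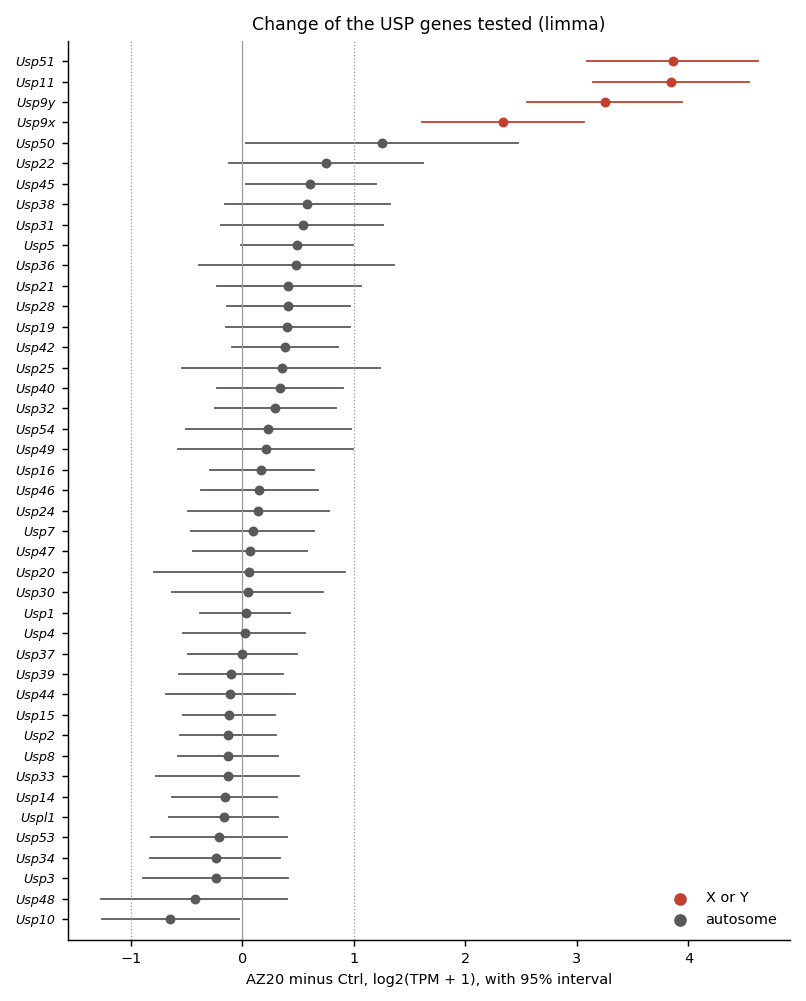
AZ20 minus Ctrl difference in log2(TPM + 1) (x axis) with its 95% interval from limma for the 43 USP genes tested (y axis, in order), sex-linked genes in red, with dotted lines at a 2-fold change. The intervals of the 4 sex-linked genes lie wholly above 1, from 1.61 upward, and those of the autosomal genes reach no higher than 2.47 and, but for Usp50, Usp45 and Usp10, include 0.

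Grouped by role, the proteases of histone H2A (Usp3, Usp12, Usp16, Usp21 and Usp46), all autosomal, had 4 of 5 tested and 0 called, with a median of 0.16. Of all autosomal genes tested, 0.101% were called higher and 0.0503% lower, so a count of 0 in so short a list lies near that share. Usp16 was at 59.6 and 52.8 TPM in Ctrl and 57.8 and 69.4 TPM in AZ20, and Usp3 at 7.93, 8.94, 5.63 and 8.55 TPM, both with overlap. Usp21 was at 11.8 and 19 TPM in Ctrl and 19.4 and 21.2 TPM in AZ20, and its difference of 0.41 did not pass. Of the proteases of histone H2B (Usp22, Usp27x, Usp44, Usp49 and Usp51), 4 of 5 were tested and 1 was called higher, the X-linked Usp51, beside 2.28% of all genes and 63.3% of X-linked genes. Usp44, which also guards the spindle checkpoint, was at 8.02 and 8.08 TPM in Ctrl and 8.31 and 6.59 TPM in AZ20, and Usp49 at 1.10, 1.85, 2.18 and 1.5 TPM. The count of H2B proteases above 1 TPM in mean was thus 2 in Ctrl, and Usp22 and Usp51 joined them in AZ20. The place of Usp49 in this count is less certain, since 52.3% of its exonic bases overlap other genes.

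A list of 10 members with roles in the DNA damage response, in which ATR itself works, had 10 tested. The X-linked Usp11 was the 1 called higher, beside 2.28% of all genes and 63.3% of X-linked genes, and the median of the list was 0.07, the same as over all genes tested. Usp7, which stabilizes MDM2 and p53, was at 33.4 and 24.3 TPM in Ctrl and 28.2 and 32.8 TPM in AZ20 (0.09). Usp28, a protease bound to 53BP1, was at 8.83 and 10.6 TPM in Ctrl and 12.4 and 14.0 TPM in AZ20 (0.41, SE 0.23, adjusted p = 0.706, limma), without overlap but not called. Usp47, with a role in base excision repair, had a difference of 0.07, and Usp20, which acts on claspin in the ATR pathway, one of 0.06 with wide scatter in both groups, from 2.65 to 5.22 TPM.

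Usp5 and Usp13, which take apart free ubiquitin chains, and Usp14, which sits on the proteasome, differed in level. Usp5 was at 13.2 and 14.4 TPM in Ctrl and 20.3 and 19.3 TPM in AZ20, without overlap and with close replicates (0.49, SE 0.21, adjusted p = 0.554, limma). Usp13 had no read in any library. Usp14 was at 29.1 and 28.1 TPM in Ctrl and 24.0 and 27.0 TPM in AZ20 (-0.16).

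The partners of the WDR48 activator, Usp1, Usp46 and Usp12, had 2 of 3 tested, since Usp12 stayed at 0.225 to 0.945 TPM. Of these, 0 were called, beside 0.101% of autosomal genes called higher and 0.0503% called lower. Usp46 was at 25.3 and 22.1 TPM in Ctrl and 29.7 and 23.5 TPM in AZ20 (0.15). The list of endosomal and mitochondrial members, all autosomal, had 4 of 6 tested and 0 called, beside the same shares, with a median of -0.04. Usp8, which sorts receptors on endosomes, was at 63.1 and 54.2 TPM in Ctrl and 50.5 and 56.4 TPM in AZ20, and Usp30, on the mitochondrial outer membrane, at 7.89, 9.17, 11.1 and 6.97 TPM. Usp33 lay at 5.69 to 8.51 TPM over the libraries, while Usp35 and Usp6nl stayed below 1 TPM. Exons of other genes overlap 24.4% of the exonic bases of Usp33, so its level is less certain. Usp39, Usp42, Usp36 and Uspl1, of the spliceosome, nuclear speckles, the nucleolus and Cajal bodies, had 4 of 4 tested and 0 called, again beside these autosomal shares. Usp42 was at 22.0 and 20.1 TPM in Ctrl and 27.7 in both AZ20 libraries (0.38, SE 0.20, adjusted p = 0.679, limma), and Usp36 at 0.777 and 1.11 against 1.10 and 2.49 TPM. Uspl1, a SUMO protease, was at 24.0 and 25.9 against 23.7 and 20.6 TPM.

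The 12 autosomal members that were not tested were Usp6nl, Usp12, Usp13, Usp18, Usp29, Usp35, Usp43 and the 5 genes of the Usp17l cluster on chromosome 7 (Usp17la to Usp17le). Usp13 and the Usp17l genes were at 0 in every library, as was Usp27x, which made 7 members without a read. Unique alignment can lose reads of near copies. Up to 36.1% of the 150-base windows of a Usp17l gene, in Usp17ld, occurred in another gene of the cluster. Usp18, Usp29, Usp35 and Usp43 reached at most 0.369 TPM in any library.

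The genes that work beside the USP proteases were described in the same way. Of 14 partner subunits (such as Atxn7l3 and Eny2 of the H2B module and Wdr48), all autosomal, 14 were tested and 0 called. Their median was 0.17, beside 0.06 over all autosomal genes tested. Atxn7l2 and Atxn7l3 passed the filter only through AZ20, so their positive sign was fixed by it. Of all autosomal genes tested, 0.101% were called higher and 0.0503% lower. Of 43 deubiquitinases of other families, 38 were tested and 3 were called higher, with a median of 0.03 over the list. All 3 lie on the X, where 63.3% of genes tested were called higher, beside 2.28% of all genes. Otud5 was at 0 in both Ctrl libraries and at 3.53 and 4.16 TPM in AZ20, and rose by 2.27 (SE 0.31, adjusted p = 0.00958, limma). Otud6a was at 0 in both and at 7.64 and 4.19 TPM, and rose by 2.74 (SE 0.36, adjusted p = 0.00745, limma). Alg13, a glycosylation gene whose product carries an OTU domain, was at 0.660 and 0.0160 TPM in Ctrl and 27.4 and 21.5 TPM in AZ20, and rose by 4.28 (SE 0.33, adjusted p = 0.000449, limma). Brcc3, the X-linked K63 chain protease of the BRCA1-A complex, was at 0 in both Ctrl libraries and at 0.0617 and 0.120 TPM in AZ20, too low to be tested.

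Among 11 genes of ubiquitin itself and its E1 activating enzymes, 10 were tested and 1, on the Y, was called higher, beside 2.28% of all genes and 75.0% of the 8 Y-linked genes tested. Uba1y, the Y-linked copy of the main E1 gene, was at 0 in both Ctrl libraries and at 3.27 and 2.22 TPM in AZ20, and rose by 1.89 (SE 0.33, adjusted p = 0.0378, limma). Uba1, its X-linked counterpart, was at 0.690 and 0 TPM in Ctrl and 2.47 and 3.6 TPM in AZ20. Its 32 reads in Ctrl replicate 1 set it apart from the USP genes of the X, and its difference of 1.62 (SE 0.38, adjusted p = 0.134, limma) was called only with the replicate block (adjusted p = 0.00357, limma), under which 81.8% of X-linked genes were called higher.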

How the data were processed

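RNA was measured in 4 libraries, 2 Ctrl and 2 AZ20. The authors trimmed paired 150-base reads (Trimmomatic 0.39), aligned them to GRCm38 with STAR 2.5.4b, kept unique alignments, counted them on refGene (featureCounts 2.0.1) and deposited TPM, 1 column for each library. The library kit is not stated to keep strand. The labels give a culture temperature of 34 °C and the methods 32 °C. Lines with a blank symbol (92) were left out.

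Reads were recovered from the TPM as whole numbers within 0.001 of a read, since a gene has 1 length in all libraries; for 1061 genes a common factor was set from the annotated length. Log2(TPM + 1) was fitted over all tested genes with limma 3.58.1 (R 4.3.3), with a trend and without a term for the mouse, and Benjamini-Hochberg adjustment over all of them. This was tested on simulated data, with changes placed only on genes with reads in both conditions and with no effect of the mouse. That test does not cover genes at 0 in Ctrl, such as the sex-linked members. Deviations of libraries with the same number correlated (0.232 over 9931 autosomal genes), and the methods state that mice were split, so a replicate block was an alternative, beside other pseudocounts, filters and scalings, voom on recovered reads and leaving out each library. Other values used scipy 1.17.1, numpy 2.4.6 and pandas 2.3.3 in Python 3.11.15.

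GENCODE placed all 57 members. Members and lists were chosen with earlier results of these data known. Named were all sex-linked and called members, their autosomal relatives, the 6 most abundant in Ctrl, the 4 largest differences in each direction and the members of the role lists, and from other lists called and sex-linked genes. The replicates are separate samples per the labels.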

Additional observations from a re-analysis of the deposited data

How the results depend on the processing

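Under 10 alternatives that kept all libraries, the 4 sex-linked calls held in 9, and a filter at a mean TPM above 5 left 3 called because it removed Usp9x from the test. The size of the change depended on the pseudocount. Usp11 rose by 3.84 with the main pseudocount, by 7.07 with 0.1 and by 10.38 with 0.01. Usp51 rose by 3.86, 7.08 and 10.39 in the same order. Voom on the recovered reads gave 9.94 for Usp11 and 9.33 for Usp51. Leaving out 1 library gave 0 to 3 members called higher, all sex-linked. It was 3 without Ctrl replicate 1 or without Ctrl replicate 2, and 0 without AZ20 replicate 1 or without AZ20 replicate 2, where no gene of the whole table was called. The lone library left in a condition was assumed to vary like the other pair. Adjusted p-values in limma then ran from 0.00673 to 0.0902 for Usp11, 0.0106 to 0.0902 for Usp51, 0.0125 to 0.0902 for Usp9y and 0.0578 to 0.0907 for Usp9x, while their changes stayed between 2.31 and 4.18. The replicate block gave 1 autosomal call, Usp50, which was not called with the block in voom (adjusted p = 0.256) and whose difference ran from 0.51 to 1.98 when 1 library was left out; the block changed no other call among the USP genes, and took the calls over all genes from 240 to 447. Quantile normalization took the median of all genes from 0.07 to -0.07 and that of the autosomal members from 0.09 to -0.043. It reversed the sign of Usp1 (-0.024), Usp4 (-0.12), Usp7 (-0.035), Usp20 (-0.20), Usp24 (-0.069), Usp30 (-0.17), Usp37 (-0.092), Usp47 (-0.019) and Usp49 (-0.075), none called. Voom reversed Usp37 (-0.026, with the replicate block -0.022) and Usp4 (-0.0017, with the block -0.011). Leaving out 1 library moved uncalled genes across 0 within these ranges: Usp1 -0.10 to 0.15, Usp3 -0.51 to 0.02, Usp4 -0.17 to 0.20, Usp7 -0.13 to 0.31, Usp20 -0.32 to 0.45, Usp24 -0.071 to 0.36, Usp30 -0.25 to 0.35, Usp33 -0.39 to 0.12, Usp37 -0.19 to 0.19, Usp39 -0.26 to 0.053, Usp44 -0.25 to 0.041, Usp46 -0.0068 to 0.32, Usp47 -0.13 to 0.27 and Usp49 -0.014 to 0.43. Shares taken from recovered reads, without length, were 59.8% and 51.5% for the Usp9x group in AZ20, 88.2% and 68.1% for the Usp22 group, and 0.930% and 1.14% for the Usp26 group. Counts of 0 to 3 reads limit what can be said of Usp27x and of every Ctrl level of a sex-linked member, and 2 libraries a group limit every test of a modest autosomal difference.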
